A study of Mus musculus with 16 samples.

Results

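The genes that encode the protein subunits of the cytosolic ribosome were examined in bone endothelial cells (ECs) of C57BL/6 mice. They were chosen by symbol alone (Rpl or Rps followed by a number, Rplp0 to Rplp2, or Rpsa, without the pseudogene mark -ps) and by a mean of at least 1 FPKM (read pairs relative to gene length and to the size of the library) over the libraries of a comparison. The choice gave 83 of 11422 tested genes for bmECs against mpECs, 81 of 11320 for ECKO against control and 82 of 12453 for Lats2 cKO against Lats2 Cont. In all, 84 genes passed in at least 1 comparison and 80 in all 3. Names that matched but stayed below 1 FPKM were Rpl3l, Rpl10l and Rpl39l in every comparison, Rps12l1 and Rps12l2 in the comparisons with bmECs and with Lats2 cKO, and Rps3a3 with Lats2 cKO. Rps3a2, Rps3a3, Rpl6l and Rps4y2 match the pattern but are annotated as pseudogenes.

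The 16 libraries are bulk RNA-seq of sorted cells. Metaphyseal ECs (mpECs, n = 3) and ECs of the diaphyseal marrow (bmECs, n = 3) came from wild-type 3-week-old animals that carry a Cdh5-driven fluorescent reporter. The control (n = 3) and ECKO (n = 3) libraries came from postnatal day 21 animals with both floxed Yap1 and floxed Wwtr1 (Taz), the controls lacking and the mutants carrying Cdh5CreERT2, a tamoxifen-inducible Cre expressed in endothelium. Lats2 Cont (n = 2) and Lats2 cKO (n = 2) share floxed Lats2 and differ in Cdh5CreERT2 in the same way. Yap1 and Taz are transcriptional co-activators of Hippo signaling and Lats2 is a kinase that inhibits them, and the comparisons ask which genes differ with the position of a vessel in bone and with loss of these regulators in ECs.

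A ribosome joins a small (40S) subunit, which reads the mRNA, and a large (60S) subunit, which forms peptide bonds. Their proteins are named Rps and Rpl, and their mRNAs are among the most abundant of growing cells. Most of these mRNAs begin with a C followed by a run of pyrimidines, the 5' terminal oligopyrimidine (TOP) motif, through which mTORC1 controls their translation.

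The labels were first checked against the targeted genes. Wwtr1 read 10.01, 9.88 and 10.3 FPKM in the controls and 15.3, 19.6 and 19.5 in the libraries labelled ECKO, a rise of 0.78 ± 0.12 (SE) on the log2(FPKM + 1) scale (adjusted p = 0.0272 by limma), where the label names a loss. Yap1 was at 0.99 to 1.62 FPKM in the controls and at 0.99 to 1.43 in the libraries labelled ECKO. Lats2 read 23.4 and 24.0 FPKM in Lats2 Cont and 19.2 in both Lats2 cKO libraries (log2 fold change -0.29 ± 0.11, adjusted p = 0.125). Whole-gene values do not resolve the floxed exons, so they cannot settle whether the labels hold. The paper reports reduced Yap1 and Wwtr1 transcripts by qPCR in bone ECs of its double mutants, and reduced Lats2 transcripts in those of its Lats2 mutants. The endothelial markers Pecam1 and Cdh5 were at 57.1 FPKM or more in every library, while erythroid and neutrophil transcripts were present in all of them. Of summed FPKM, 8 erythroid markers held 7.02% to 11.5% in mpECs and 9.72% to 12.1% in bmECs. For 8 neutrophil markers the shares were 2.91% to 6.12% and 1.96% to 2.79%. Those of 8 endothelial markers were 0.2094% to 0.2985% and 0.2129% to 0.2427%. Elsewhere the erythroid share reached at most 1.95% in control, 2.35% in ECKO, 1.13% in Lats2 Cont and 0.37% in Lats2 cKO. The depth is not given with FPKM. Reads recovered from the smallest steps of the values numbered 4882758 to 15492473 per library, and 62.5% to 70.0% of the values of up to 20 reads lay within 0.02 reads of a whole number.

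RefSeq (GRCm38.p6) gives a start site for 63 of the names that match the pattern, of which 60 reached 1 FPKM in a comparison. The windows of 15 bases on each side of it are shown for those genes with the largest rise in Lats2 cKO, the largest fall in bmECs and the lowest fold changes in Lats2 cKO (5, 2 and 3 genes), because the TOP motif lies at this place. Capitals mark a C followed by at least 5 C or T bases on the sense strand.
Rpl38: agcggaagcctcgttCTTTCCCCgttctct
Rps26: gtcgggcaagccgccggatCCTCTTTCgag
Rpl39: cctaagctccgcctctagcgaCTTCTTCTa
Rps16: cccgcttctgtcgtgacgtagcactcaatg
Rps23: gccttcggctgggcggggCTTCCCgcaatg
Rpl12: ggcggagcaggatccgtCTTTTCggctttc
Rpl22l1: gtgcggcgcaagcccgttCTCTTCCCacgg
Rpl24: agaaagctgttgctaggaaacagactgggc
Rpl7l1: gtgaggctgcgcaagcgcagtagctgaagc
Rps28: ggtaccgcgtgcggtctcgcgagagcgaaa
The windows lie at chr11:114668565-114668594 (plus strand) for Rpl38, chr10:128626492-128626521 (minus) for Rps26, chrX:37085208-37085237 (minus) for Rpl39, chr7:28350674-28350703 (plus) for Rps16 and chr13:90923107-90923136 (plus) for Rps23. Those of the other genes are chr2:32961697-32961726 (plus) for Rpl12, chr3:28805493-28805522 (plus) for Rpl22l1, chr16:55966260-55966289 (plus) for Rpl24, chr17:46782642-46782671 (minus) for Rpl7l1 and chr17:33824548-33824577 (minus) for Rps28. Each holds 15 bases before the start and the first 15 transcribed bases of the gene.

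The tract of Rpl38 starts at the first transcribed base and runs for 8 bases, while that of Rps26 starts at base 5 and that of Rpl12 at base 3. A tract was found in the window of 36 of the 63 genes (57.1%, the 3 below 1 FPKM included), against 25.5% of the 27025 genes with a RefSeq promoter. Over the 300 bases around the start (250 before and 50 from it on) and on both strands, CCGGAAG, the core that ETS factors bind, was found in 41.3% of the 63 genes and 9.93% of all. AAGATGGC, the YY1 motif, was in 9.52% and 3.19%, CACGTG, the E-box of Myc, in 9.52% and 8.09%, and TATAAA in 11.1% and 15.7%. The reverse complement of CCGGAAG begins with pyrimidines and can overlap a tract.

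Levels were read within each of the 3 tables, which were made separately. In the mpEC and bmEC libraries the median of the 83 genes was 157 FPKM, with 63 of them above the 90th percentile of all tested genes, and the range was 2.67 to 1545 FPKM. By the mean over the 6 libraries Rpl32, a large-subunit protein, was the highest (1194 to 1893 FPKM), and Rps27, Rpl4 and Rplp0 were also among the 5 highest. Rpl32 led in each mpEC library and Rps27 in each bmEC library. Rps3a3, Rpl24 (3.24 to 3.96 FPKM), Rps3a2, Rps15a and Rpl12 were the lowest. The highest mean was 578 times the lowest.

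Rpl32 also had the highest mean over the control and ECKO libraries (2523 to 3184 FPKM) and over the Lats2 libraries (193 to 542 FPKM), although Rps12 was above it in control 1 and control 3 and Rpl4 in both Lats2 Cont libraries. Rpl6l, Rpl21 and Rps16 had the lowest 3 means of the 81 genes in the control and ECKO libraries, and Rps15a, Rpl24 and Rps3a2 those of the 82 genes in the Lats2 libraries. The share of summed FPKM held by the genes was 5.22% to 5.31% in mpECs, 4.06% to 4.25% in bmECs, 15.9% to 17.0% in control, 14.7% to 16.2% in ECKO, 1.12% and 1.22% in Lats2 Cont and 1.88% and 2.02% in Lats2 cKO.

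**Figure D1:**
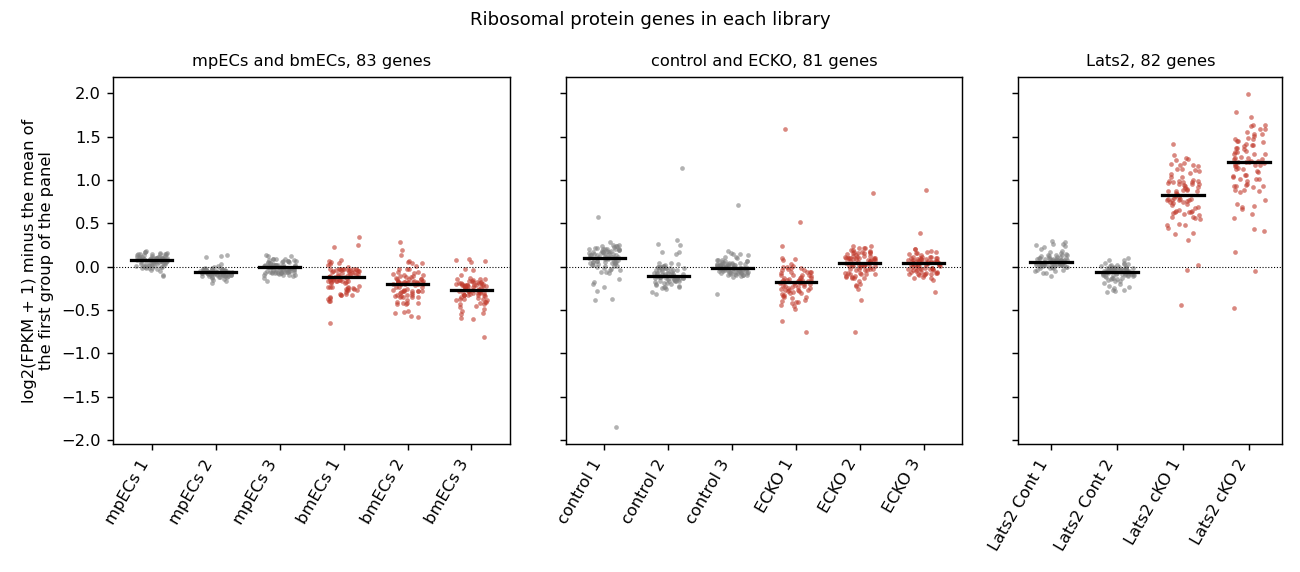
Each point is a ribosomal protein gene in 1 library (x axis), as its log2(FPKM + 1) minus the mean of the gene over the first group of the panel (gray), and black bars are medians. The medians of bmECs lie at -0.12, -0.20 and -0.26 and those of Lats2 cKO at 0.83 and 1.20, while the control and ECKO libraries (red, second group) intermingle.

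Ribosomal protein genes were lower in bmECs than in mpECs. Of the 83 genes, 24 fell (28.9%) and 0 rose at an adjusted p under 0.05, where 10.5% of all tested genes fell and 13.0% rose. The median log2 fold change was -0.20, against -0.00 over all genes, and 78 of the 83 had a negative value. At an unadjusted p under 0.05, which 36.1% of all genes passed in either direction, 41 fell and 0 rose. At an adjusted p under 0.01 with a log2 fold change over 0.5 in size, 2 fell and 0 rose, against 5.17% and 6.51% of all genes. In a bulk sample, fewer cells of a type with high levels and less RNA per cell cannot be told apart.

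Large-subunit genes gave 12 of 45 lower and small-subunit genes 12 of 35, with medians of -0.18 and -0.22. Rpl32 read 1893, 1731 and 1808 FPKM in mpECs and 1374, 1272 and 1194 in bmECs, a log2 fold change of -0.50 ± 0.10 (adjusted p = 0.0077 by limma, as for all p-values here). Its bmEC libraries all lay below its mpEC libraries.

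Rpl39, which lines the peptide exit tunnel, was at 66.8, 66.5 and 62.3 FPKM in mpECs and at 49.3, 48.3 and 44.4 in bmECs (-0.45 ± 0.08, adjusted p = 0.00482). Rpl12, at the base of the stalk that recruits translation factors, was at 35.7, 28.5 and 32.5 FPKM and at 25.5, 21.2 and 21.9 (-0.48 ± 0.11, adjusted p = 0.0179). Neither gene's groups overlapped. The largest fall of all was that of the annotated pseudogene Rps4y2 (43.5, 46.8 and 37.7 against 26.8, 29.4 and 23.8 FPKM, -0.66 ± 0.11, adjusted p = 0.00459), a processed copy related to Rps4x whose reads could in part come from that gene. Of its 50-base stretches, 82.0% were found in no other gene's transcripts, against 27.8% for Rps4x, and the origin of the reads was not tested. Rps4x itself did not pass (250 to 290 against 228 to 272 FPKM, adjusted p = 0.69).

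The others that fell, among them Rpl5, Rpl10a, Rpl15, Rpl17, Rpl22l1, Rpl28, Rpl31, Rpl35, Rpl41, Rps2, Rps7, Rps10, Rps18, Rps26, Rps27a, Rps27l and Rpsa, had log2 fold changes between -0.27 and -0.46. Rps27a is made as a fusion with ubiquitin, and Rpsa is also known as the laminin receptor. In 52 of the 83 genes every bmEC library lay below every mpEC library, which 19.2% of all tested genes did. The opposite order, which 22.1% of all genes had, was found in Rps27 and Rps3.

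Rps27 read 1318, 1295 and 1302 FPKM in mpECs and 1550, 1591 and 1386 in bmECs (0.21 ± 0.09, adjusted p = 0.151). Rps3, which sits at the mRNA entry channel, read 227, 215 and 218 against 258, 241 and 232 FPKM (0.15 ± 0.08, adjusted p = 0.214). Neither passed the test, and the 3 other genes with a positive value, Rps3a2, Rpl7l1 and Rpl24, overlapped between groups.

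The P stalk, made of Rplp0, Rplp1 and Rplp2 and needed to activate elongation factors, had log2 fold changes of -0.18, -0.17 and -0.22, none of which passed. Of Rpl5 and Rpl11, which with 5S rRNA can bind Mdm2 and so stabilize p53, Rpl5 fell (94 to 107 against 80 to 83 FPKM, -0.29 ± 0.08, adjusted p = 0.0331) and Rpl11 did not pass (adjusted p = 0.161). For Rpl5, 6.16% of the 50-base stretches were found in no other gene's transcripts. Among 18 genes mutated in Diamond-Blackfan anemia, an inherited failure of red cell production, 7 fell and 0 rose, with a median of -0.21.

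The direction held under each way of scaling, but the number of calls did not. With each library scaled to its summed FPKM without these genes and the 10 highest genes, 65 fell, and with reads recovered from FPKM and limma-voom 76 fell, as all genes shifted down by -0.10 and -0.20. Relative to the median of all genes the median of the 83 genes was -0.19 as deposited, -0.21 and -0.20, and -0.33 with quantile normalization, where 64 fell. Without any 1 library, 9 to 21 of the genes fell: 9 without bmECs 2 or mpECs 3, 10 without bmECs 3, 12 without mpECs 1 and 15 without bmECs 1. Without bmECs 2 and without mpECs 3, 927 and 799 of all genes fell, so that the 9 of 83 genes were close to the share of all genes. The filter of 1 FPKM was applied anew in these fits, so the number of genes tested can differ from 11422.

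Proliferation and osteoblast markers also differed between these groups. All 11 proliferation markers were lower in bmECs (summed 372 to 545 FPKM in mpECs and 237 to 269 in bmECs), as were 5 of 7 osteoblast markers (summed 247 to 975 and 45.5 to 60.9). Erythroid markers (0 of 8 called, 28869 to 53789 and 43329 to 61213), neutrophil markers (1 of 8 lower, 11956 to 28511 and 9726 to 14143), B cell markers (1 of 7 lower, 148 to 298 and 126 to 165), macrophage markers (1 higher and 1 lower of 6, 1153 to 2001 and 1045 to 1320.0) and megakaryocyte markers (0 of 4, 76.9 to 324 and 79.0 to 467) overlapped in their sums. Of 8 endothelial markers 3 were higher and 3 lower (975 to 1227 and 1067 to 1082). No marker was at 0 in every library, and the part of these cells in the difference was not tested.

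In the libraries labelled ECKO, 0 of the 81 genes rose and 0 fell, where 0.883% of all tested genes rose and 0.424% fell at an adjusted p under 0.05. At an unadjusted p under 0.05 3 of the 81 genes passed (1 higher and 2 lower), as did 17.9% of all genes, and 0 were called with limma-voom on recovered reads. At an adjusted p under 0.01 with a log2 fold change over 0.5 in size 0 of the 81 genes were called, against 0.00883% of all genes lower and 0 genes higher. The median log2 fold change was -0.03, against -0.00 over all genes. The 95% interval lay within 0.5 of 0 for 70 of the 81 genes and within 1 for 79.

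Rpl32 read 2907, 2695 and 2523 FPKM in the controls and 2769, 3184 and 2871 in the libraries labelled ECKO (0.12 ± 0.14). Rplp0 read 1584, 1476 and 1503 against 1425, 1672 and 1637 FPKM (0.05 ± 0.12). Groups overlapped for both genes.

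The genes farthest from the median were Rpl6l, Rps16 and Rps15a above it and Rpl28, Rpl7l1 and Rpl29 below it. Rpl6l, an annotated processed pseudogene, read 0.95, 1.31 and 0.91 FPKM in the controls and 1.93, 2.70 and 2.77 in the libraries labelled ECKO (0.75 ± 0.17, adjusted p = 0.0654). Rps16 varied most, with 3.13, 32.04 and 23.4 FPKM against 43.8, 7.84 and 18.5, and its interval ran from -1.25 to 2.06. Rpl7l1, a relative of Rpl7, read 46.6, 41.0 and 45.7 against 33.7, 37.0 and 36.1 FPKM (-0.31 ± 0.09, adjusted p = 0.13), without overlap.

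In 7 of the 81 genes every library labelled ECKO lay below every control and in 2 above, against 11.3% and 12.3% of all genes. ECKO 1 stood apart within its group, with a median of -0.17 against the controls where ECKO 2 and ECKO 3 were at 0.04. It also held the highest summed neutrophil markers (3973 FPKM, against 1683 to 1788 in the others). Without it the median was 0.04 and 1 gene, Rpl6l, rose, and without control 1 it was 0.02; with a trend with length and GC content removed it was 0.02 as well and Rpl6l was again called, so the sign of the median was not fixed.

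Of the other marker lists in these libraries, summed endothelial markers were at 488 to 498 FPKM in control and at 563 to 648 in the libraries labelled ECKO (0 of 8 called), and proliferation markers at 349.8 to 362 and 301 to 315 (0 of 11). Osteoblast markers were at 42.2 to 61.7 and 12.99 to 31.2 (3 of 7 lower) and B cell markers at 209 to 238 and 165 to 174 (0 of 7). Erythroid (4848 to 5798 and 4686 to 6950, 0 of 8), neutrophil (2126 to 2763 and 1683 to 3973, 0 of 8), macrophage (1426 to 1962 and 1333 to 1522, 0 of 7) and megakaryocyte markers (147 to 166 and 161 to 184, 1 of 5 higher) completed them.

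In Lats2 cKO the ribosomal protein genes rose together. Of the 82 genes 67 rose (81.7%) and 0 fell at an adjusted p under 0.05, where 11.8% of all tested genes rose and 9.98% fell. The median log2 fold change was 1.02, against -0.00 over all genes. At an unadjusted p under 0.05, which 38.6% of all genes passed in either direction, 76 rose and 1 fell. At an adjusted p under 0.01 with a log2 fold change over 0.5 in size, 3 rose and 0 fell, against 0.851% and 1.21% of all genes. In 80 of the genes both Lats2 cKO libraries lay above both Lats2 Cont libraries, an order that 34.0% of all tested genes had.

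Rpl38, known for its part in the translation of Hox mRNAs, read 37.5 and 36.9 FPKM in Lats2 Cont and 86.0 and 151 in Lats2 cKO (1.59 ± 0.27, adjusted p = 0.0192). Rps26, which lies at the mRNA exit channel, read 46.8 and 45.1 against 124 and 155 FPKM (1.57 ± 0.15, adjusted p = 0.00808). Rpl39 read 13.2 and 8.56 against 27.3 and 39.2 FPKM (1.54 ± 0.26, adjusted p = 0.0191). These 3 were the farthest above the median, and none of them overlapped between groups.

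Rps16 read 50.8 and 45.0 against 116 and 149 FPKM (1.44 ± 0.17, adjusted p = 0.0104). Rps23, a protein of the decoding center, read 47.9 and 39.4 against 103 and 133 FPKM (1.41 ± 0.18, adjusted p = 0.0115). Rpl32 read 220 and 193 against 468 and 542 FPKM (1.28 ± 0.15, adjusted p = 0.0104). For all of these Lats2 cKO 2 was the higher of the mutant libraries, as it was for the median of the 82 genes (1.20 against 0.83 in Lats2 cKO 1).

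The genes farthest below the median were Rpl24, Rpl7l1 and Rps28. Rpl24, which forms a bridge between the subunits, read 4.89 and 4.81 FPKM in Lats2 Cont and 3.31 and 3.21 in Lats2 cKO (-0.46 ± 0.15, adjusted p = 0.0899). Rpl7l1 read 60.2 and 58.2 against 57.9 and 57.1 FPKM (-0.04 ± 0.11, with a 95% interval of -0.32 to 0.23). Rps28 read 69.9 and 69.8 against 70.9 and 93.3 FPKM (0.22 ± 0.16, adjusted p = 0.371). The windows shown for these 3 genes hold no pyrimidine tract, nor does that of Rps16. A window without a tract shows this for the RefSeq start only. In the GENCODE annotation Rps16 begins at base 28350652 of chromosome 7, before its window, so a tract there would be missed.

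The 15 genes that did not pass were these 3 with Rpl4, Rpl7a, Rpl9, Rpl27a, Rpl29, Rpl34, Rplp0, Rps3, Rps6, Rps15a and the pseudogenes Rps3a2 and Rps4y2. Rpl4 read 253 and 239 against 344 and 332 FPKM (0.46 ± 0.12, adjusted p = 0.0515). Rps6, the target of S6 kinase, had an adjusted p of 0.0872, and Rps3 one of 0.0522. All but Rpl24 and Rpl7l1 had a positive value.

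Of the subunits, 37 of 45 large-subunit and 28 of 34 small-subunit genes rose (medians 0.99 and 1.06). In the P stalk, Rplp1 rose from 115 and 116 FPKM to 230 and 324 (1.23 ± 0.19, adjusted p = 0.0158) and Rplp2 from 16.5 and 15.7 to 32.1 and 50.5 (1.27 ± 0.23, adjusted p = 0.0213). Rplp0, which anchors both, read 196 and 131 against 209 and 236 FPKM (0.47 ± 0.22, adjusted p = 0.183) and did not pass. Rpl5 (1.16 ± 0.18, adjusted p = 0.0161) and Rpl11 (0.95 ± 0.17, adjusted p = 0.0203) both rose, and so did 16 of the 18 Diamond-Blackfan anemia genes.

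Relative to the median of all genes, the median of the 82 genes was 0.84 to 1.21 in every alternative fit, also where the scaling moved all genes (by -0.13 with either the summed FPKM or recovered reads). The calls need both controls: without Lats2 Cont 1 or Lats2 Cont 2, limma called 0 of the 82 genes and 0 of all genes, with medians of 1.08 and 0.98. Without Lats2 cKO 2 the median was 0.83. Each of these fits has 1 library in a group and assumes that it varies like the other group.

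Some blood cell transcripts fell in these libraries. Summed erythroid markers were at 2607 to 3854 FPKM in Lats2 Cont and 257 to 1429 in Lats2 cKO (2 of 8 lower), neutrophil markers at 2021 to 2973 and 721 to 910 (5 of 8 lower), B cell markers at 82.9 to 93.7 and 23.3 to 31.2 (5 of 6 lower), macrophage markers at 545 to 657 and 80.3 to 311 (1 of 6 lower, with a median log2 fold change of 0.14 over the 6) and megakaryocyte markers at 29.7 to 110 and 9.45 to 12.1 (1 of 5 lower). Summed endothelial markers were at 1619 to 1733 and 1559 to 1628 FPKM (1 of 8 higher, 2 lower), proliferation markers at 133 to 137 and 157 to 210 (4 of 11 higher) and osteoblast markers at 13.7 to 84.3 and 43.1 to 68.6 (1 of 6 higher). The part of other cells in the rise of the ribosomal protein genes was not tested.

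**Figure D2:**
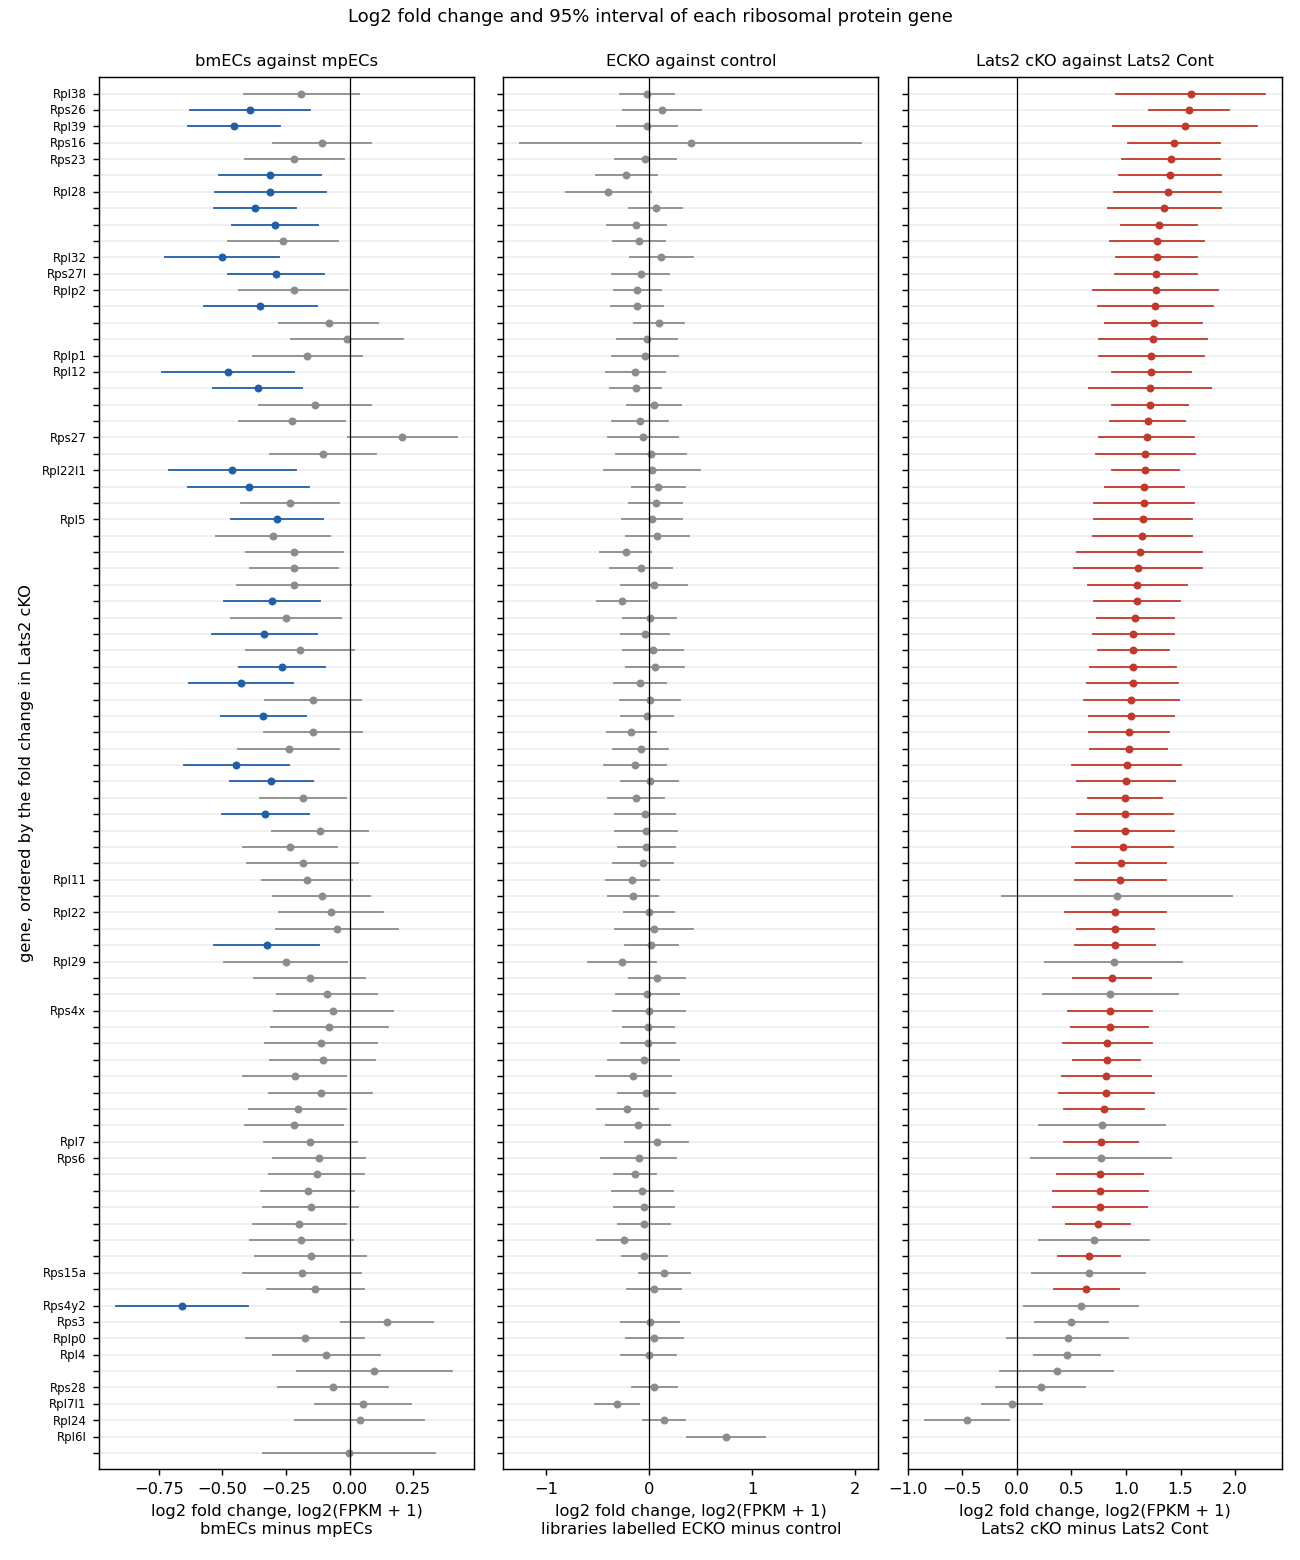
Log2 fold change (x axis, log2(FPKM + 1) scale, a range of its own in each panel) and 95% interval of every ribosomal protein gene (y axis, ordered by the Lats2 cKO panel, with names for genes described in the text). Red marks an adjusted p under 0.05 and higher, blue lower and gray not called: 24 genes are blue for bmECs, none is colored for ECKO and 67 are red for Lats2 cKO.

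The comparisons of bmECs with mpECs and of Lats2 cKO with Lats2 Cont share no libraries. Of the 24 genes lower in bmECs, 23 were higher in Lats2 cKO (95.8%), and these 23 were 34.3% of the 67 higher in Lats2 cKO, where 81.7% of all 82 genes were called. The exception was Rps4y2. Across the 82 genes in both comparisons the log2 fold changes had a Spearman rho of -0.49, given as a description since the genes share libraries. Between the libraries labelled ECKO and Lats2 cKO the rho was 0.01 (80 genes), and between bmECs and ECKO 0.13 (80 genes).

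**Figure D3:**
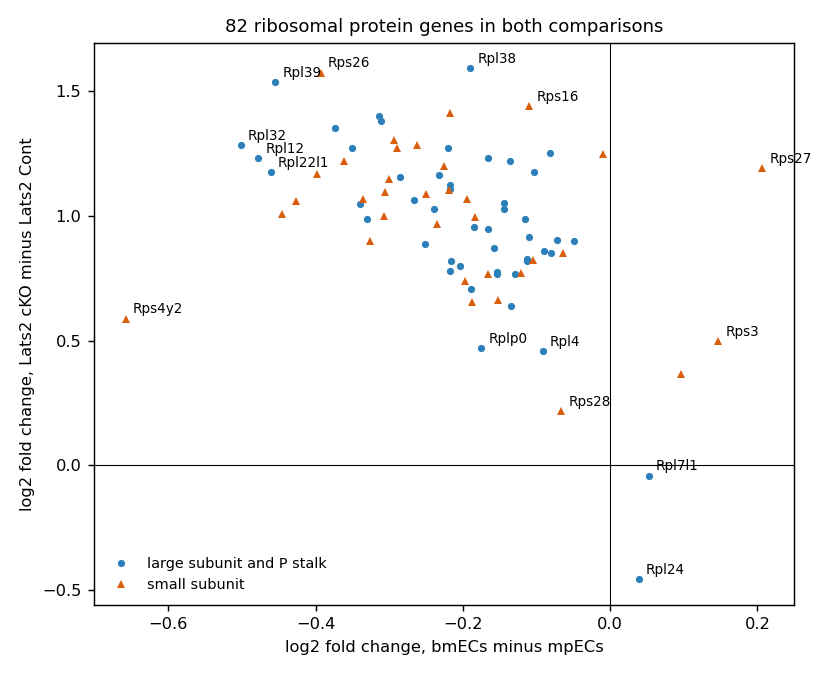
Each point is 1 of 82 ribosomal protein genes, with the log2 fold change of bmECs minus mpECs on the x axis and of Lats2 cKO minus Lats2 Cont on the y axis (both log2(FPKM + 1)). Most genes are at the upper left, Rpl24 and Rpl7l1 are at the lower right, and Rps27 is higher on both axes.

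Genes with a pyrimidine tract in the window and those without were compared by their values alone. With a tract, 13 of 35 genes fell in bmECs (median -0.23) and 29 of 35 rose in Lats2 cKO (median 1.07). Without one, 4 of 25 fell (median -0.14) and 19 of 25 rose (median 0.97). Of all ribosomal protein genes 28.9% fell in bmECs and 81.7% rose in Lats2 cKO, against 10.5% and 11.8% of all tested genes. The sets rest on RefSeq starts, and the difference between them was not tested. In the libraries labelled ECKO the medians were -0.06 and -0.00.

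Of the paralogs of ribosomal proteins, Rpl22l1, Rps27l and Rpl7l1 were measured beside their parent genes. Rpl22l1 was higher than Rpl22 in each library of the mpEC and bmEC table, and it fell in bmECs (237, 191 and 199 against 161, 156 and 138 FPKM, -0.46 ± 0.11, adjusted p = 0.0175) while Rpl22 did not pass (28.8 to 31.1 against 26.2 to 30.9, adjusted p = 0.6). As a percent of Rpl22, the mean was 703% in mpECs and 537% in bmECs. It was 144% in control, 143% in ECKO, 307% in Lats2 Cont and 359% in Lats2 cKO. In Lats2 cKO both rose, Rpl22l1 from 27.9 and 26.1 to 59.1 and 65.7 FPKM (1.18 ± 0.12, adjusted p = 0.00912) and Rpl22 from 10.01 and 7.80 to 15.6 and 19.5 (0.90 ± 0.18, adjusted p = 0.0274).

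Rps27l, a p53-inducible relative of Rps27, fell in bmECs (239, 229 and 253 against 201, 205 and 184 FPKM, -0.29 ± 0.08, adjusted p = 0.0376), where Rps27 had the opposite sign. Its mean share of the Rps27 level was 18.4% in mpECs and 13.03% in bmECs. The share was 11.1% in control and 10.9% in ECKO, and 88.2% in Lats2 Cont and 93.5% in Lats2 cKO. Mean Rps27 was 1407 FPKM in the mpEC and bmEC table, 805 in the control and ECKO table and 120 in the Lats2 table. Mean Rps27l was 218, 87.9 and 109 FPKM. The tables were made separately, so such shares are read within a table only. In Lats2 cKO Rps27l and Rps27 both rose (1.27 ± 0.15 and 1.19 ± 0.17). Rpl7l1 was not called in bmECs (73.5 to 84.3 against 81.6 to 84.2 FPKM) nor in Lats2 cKO, where Rpl7 rose from 47.9 and 42.5 to 72.9 and 83.4 FPKM (0.77 ± 0.13, adjusted p = 0.0197) and the mean percent of Rpl7l1 went from 131% to 73.9%. The differences between a paralog and its parent were not tested.

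Rpl3l stayed at or under 1.10 FPKM, Rpl39l at or under 1.65, and Rpl10l was listed at 0 in every control, ECKO and Lats2 library. The other parent genes Rpl3, Rpl10, Rpl39 and Rps4x all rose in Lats2 cKO (0.85, 0.64, 1.54 and 0.85), and only Rpl39 of them fell in bmECs.

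**Figure D4:**
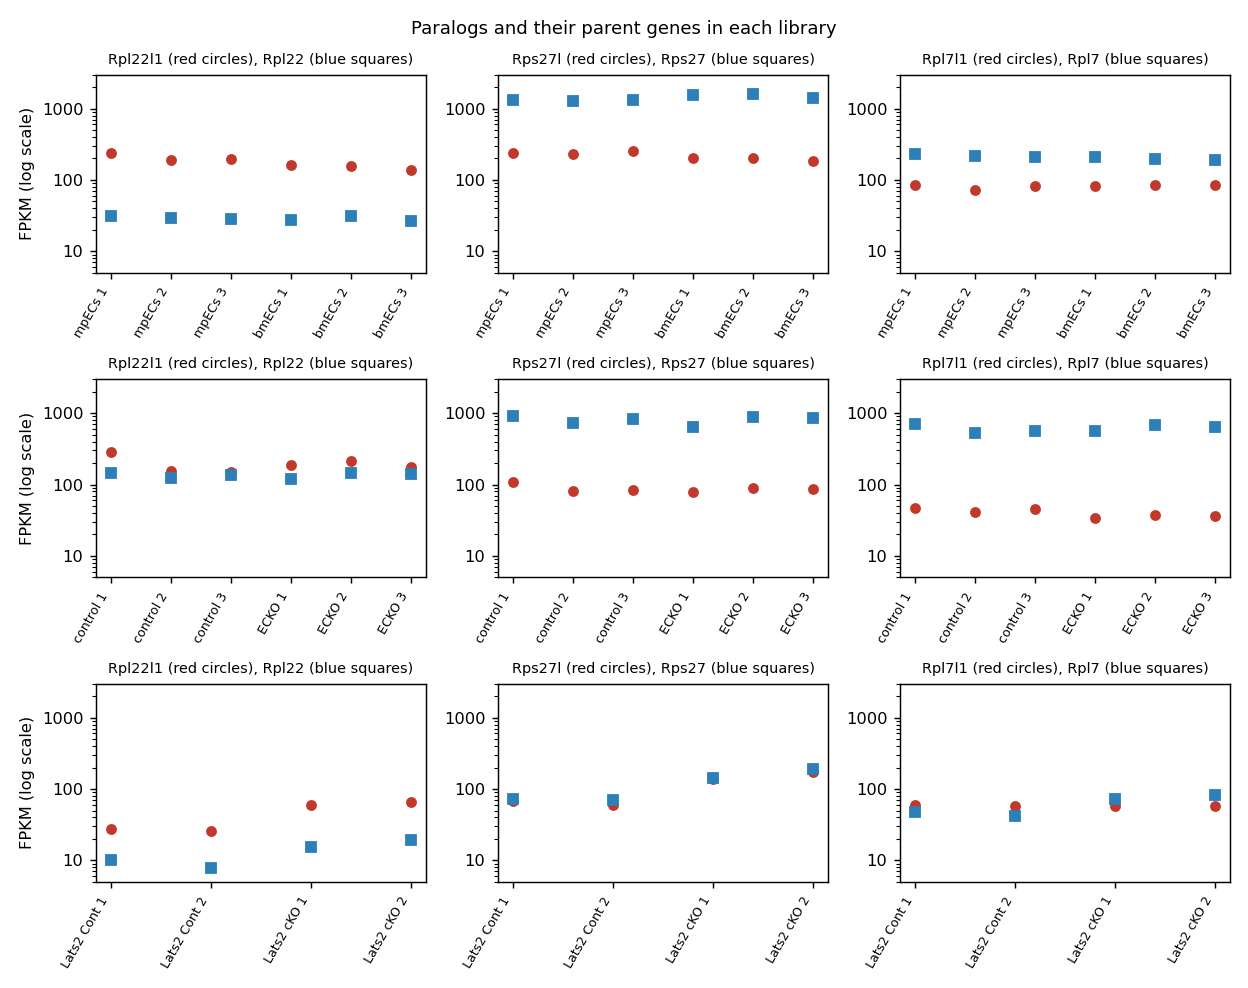
FPKM (y axis, log scale) of 3 paralogs (red circles) and their parent genes (blue squares) in each library (x axis), with mpECs and bmECs in the top row, control and ECKO in the middle row and Lats2 in the bottom row. Rpl22l1 lies above Rpl22 in every library, Rps27l below Rps27, and Rpl7l1 is at 57.1 to 60.2 FPKM in the Lats2 libraries where Rpl7 rises.

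Other genes of translation were read beside the ribosomal proteins. In bmECs, 1 of 3 ribosome partner proteins fell (Gnb2l1, which encodes Rack1, -0.33 ± 0.09, adjusted p = 0.025). The list of 19 other TOP mRNAs also counts the non-coding RNA Gas5. Of these 19, 3 fell, namely Hnrnpa1 (-0.41 ± 0.12), Btf3 (-0.35 ± 0.08) and Gas5 (-0.30), and the median of the TOP list was -0.16. Of 75 mitochondrial ribosomal proteins, which are built into another ribosome, 1 rose (Mrpl45) and 1 fell (Mrpl34), with a median of -0.05. Initiation factors (0 higher and 1 lower, Eif2b2, of 31), ribosome assembly genes (1 higher and 4 lower of 46) and RNA polymerase I genes (1 higher and 2 lower of 13) had medians of -0.07, -0.12 and -0.11, where 13.0% of all tested genes rose and 10.5% fell. In the assembly list the snoRNP protein Nhp2 fell (-0.61 ± 0.11) and Sbds, which frees the 60S subunit of Eif6, rose (0.60 ± 0.09).

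In Lats2 cKO, 14 of 19 other TOP mRNAs rose (median 0.69), with Hnrnpa1 (0.92 ± 0.13) and Btf3 (0.90 ± 0.12) the largest. Fau, which encodes Rps30 fused to a ubiquitin-like protein, read 33.3 and 29.7 against 59.8 and 73.0 FPKM (1.05 ± 0.15, adjusted p = 0.0135). Of mitochondrial ribosomal proteins 27 rose and 1 fell of 75 (median 0.47), of initiation factors 8 of 31 rose (median 0.41, Eif6 among them) and of ribosome assembly genes 6 of 47 (median 0.34, with Nhp2 at 1.27 ± 0.20 and the snoRNP methyltransferase Fbl at 0.98 ± 0.13). No RNA polymerase I gene was called (0 of 14, median 0.21). Over all tested genes 11.8% rose, a share close to that of the assembly genes. The difference between the lists was not tested.

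Regulators of these genes were also listed. Of 22 mTORC1 and S6 kinase genes 4 rose in Lats2 cKO, among them Eif4ebp1, an inhibitor of cap-dependent initiation that mTORC1 switches off (54.3 and 57.4 against 104 and 163 FPKM, 1.20 ± 0.23, adjusted p = 0.0241), and Lamtor5 (0.73 ± 0.14). In bmECs, 2 of 20 rose, namely Deptor (0.56 ± 0.13), an inhibitor of mTOR, and Lamtor1 (0.33 ± 0.07). In the libraries labelled ECKO, 0 of 22 passed. Over all tested genes 11.8% rose in Lats2 cKO, 13.0% rose in bmECs and 1.31% were called in ECKO. The medians of the list were 0.15 in Lats2 cKO, 0.01 in bmECs and -0.15 in ECKO.

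Myc, which drives ribosome production, rose in Lats2 cKO (15.3 and 14.4 against 24.0 and 31.6 FPKM, 0.85 ± 0.17, adjusted p = 0.0257), and so did Mxd3. They were 2 of 11 genes of the Myc network, which had a median of -0.06, where 11.8% of all tested genes rose. In the libraries labelled ECKO, Myc fell (40.3, 48.0 and 41.0 against 27.0, 19.5 and 22.3 FPKM, -0.89 ± 0.13, adjusted p = 0.0235) and so did Mycn (-1.18 ± 0.17), 2 of 10, where 0.424% of all tested genes fell. Whether these changes bear on the ribosomal protein genes was not tested. In bmECs, Mycn (-1.20 ± 0.15) and Mxd3 (-1.30 ± 0.13) fell, 2 of 9, where 10.5% of all tested genes fell. The median of the network was -0.42 in bmECs and -0.08 in ECKO.

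Of the other lists in the libraries labelled ECKO, 0 of 3 partner proteins, 0 of 18 TOP mRNAs and 0 of 14 RNA polymerase I genes were called, 1 of 31 initiation factors fell (Eif3b, -0.79 ± 0.13), 1 of 47 assembly genes (Nop14, -0.60 ± 0.11) and 1 of 76 mitochondrial ribosomal proteins (Mrpl14, -0.995 ± 0.134). Among p53 and its targets, 3 of 17 fell in bmECs (Phlda3 and Bbc3 the most), 1 of 16 rose in the libraries labelled ECKO (Bbc3, 0.99 ± 0.17), and 5 rose and 2 fell of 16 in Lats2 cKO, where Pmaip1 rose (2.46 ± 0.40) and Sesn1 fell (-1.42 ± 0.24). Over all tested genes 0.883% rose and 0.424% fell in ECKO, 10.5% fell in bmECs, and 11.8% rose and 9.98% fell in Lats2 cKO. The medians of the p53 list were -0.10 in bmECs, 0.15 in ECKO and -0.06 in Lats2 cKO.

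**Figure D5:**
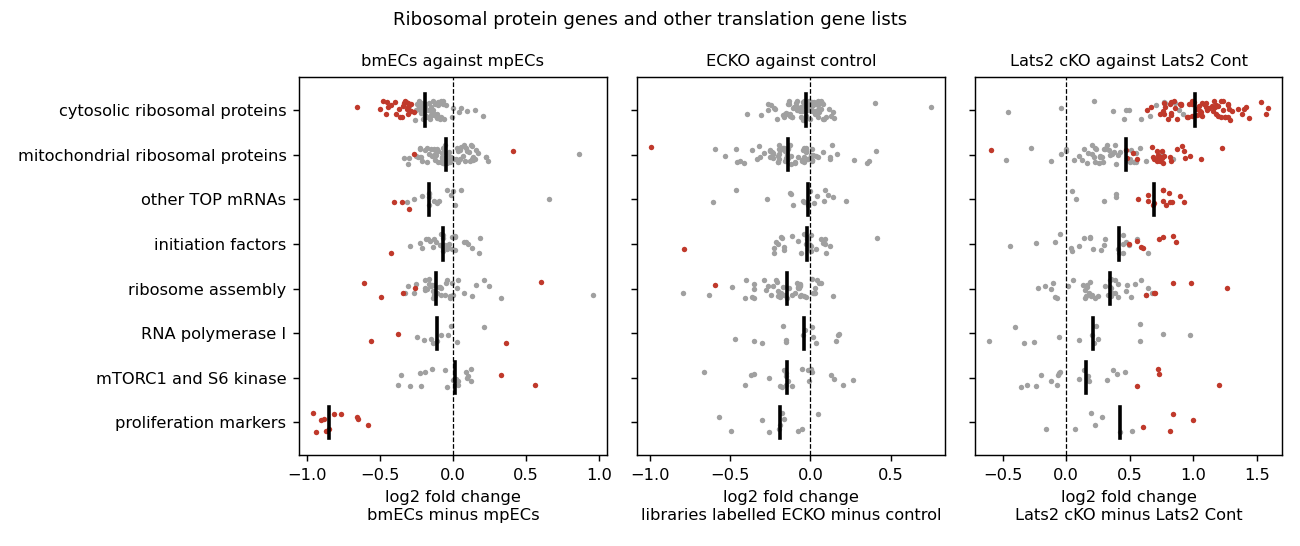
Log2 fold changes (x axis) of the genes of each list (y axis), 1 panel per comparison, with called genes in red (adjusted p under 0.05), others in gray, the list's median as a black bar and the median of all tested genes as a dashed line. The cytosolic ribosomal proteins have medians of -0.20, -0.03 and 1.02.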

How the data were processed

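Bone ECs were profiled in 16 libraries, which were grouped by their labels. Per the labels and the study's methods, RNA was sequenced on a MiSeq from TruSeq Stranded Total RNA libraries, reads were mapped to mm10 (GRCm38) with TopHat and counted with HTSeq 0.6.1, and the authors used DESeq2 for their own tests. The deposited FPKM values were made by the authors in a step, with a strand setting, not given in the sources used here. No column of per-sample values was left out (0).

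The ribosomal protein genes and the other lists were chosen with earlier results of these data known. Log2(FPKM + 1) was fitted in each table alone with limma 3.58.1 (R 4.3.3), using empirical Bayes with a mean-variance trend, and a gene entered when it averaged 1 FPKM or more. P-values are two-sided, adjusted over all tested genes by Benjamini-Hochberg, and measure the spread between these libraries only, as the labels do not say which animals each came from. A fold change on this scale understates the change of low genes. Named in each comparison were the 5 ribosomal protein genes of each sign with the largest called change, the 5 highest and 5 lowest in FPKM, the 3 farthest above and below the median, paralogs with parents, the P stalk, Rpl5 and Rpl11, the targeted genes, and 2 genes of each list; others named, where a count is broken down or a gene stands apart, were chosen after their values were seen. A few genes that the rule names are not reported here by name.

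Genes were matched to GENCODE M21 of GRCm38 by symbol or ID (96.3% to 99.3% of the names). Many of these genes share sequence with processed pseudogenes (a median of 6 at 90% identity over 50% of the transcript, by blastn 2.17.0), and a median of 37.8% of the 50-base stretches of their transcripts were found in no other gene's transcripts in the mpEC and bmEC table, so that their levels are uncertain. Reads were recovered as FPKM times exon length and a unit per library, and no replicates differed by less than counting noise. Alternatives were another pseudocount (0.1), a filter of 5 FPKM or none, quantile normalization, rescaling, removal of a length and GC trend, limma-voom on recovered reads, a replicate block, leaving out each library, and calls at an adjusted p under 0.01 with a log2 fold change over 0.5 in size. The fit was tested on simulated data.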

Additional observations from a re-analysis of the deposited data

How the results depend on the processing

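In bmECs, 64 genes fell with quantile normalization (median -0.32), 65 with rescaling by the summed FPKM (median -0.31) and 76 with recovered reads (median -0.41), 2 at the stricter threshold, and 9 to 21 without any 1 library; 1 rose (not in the fit as reported) with the replicate block and the length and GC trend removed. The rescaling and the recovered reads also turned the split over all genes from 1481 higher and 1201 lower to 1063 and 1817 and to 910 and 2622. In the libraries labelled ECKO, 148 of all genes were called, but 1 with no filter, 45 with the replicate block, 52 with the block and the trend removed, 358 with recovered reads and 1 to 293 without any 1 library; of the 81 genes, 1 rose with the trend removed and 0 or 1 without any 1 library. In Lats2 cKO, 1389 of 2711 genes were called with no filter, 0 to 2701 without any 1 library and 0 to 70 of the 82 genes; 3 rose at the stricter threshold, and 1 fell with the trend removed, with or without the replicate block. The split over all genes was 1468 higher and 1243 lower, 1131 and 1618 with rescaling and 1350 and 2098 with recovered reads. The cause was not tested, except that fits without a library hold fewer samples.

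The labels do not say whether the replicate numbers pair the libraries. For mpECs and bmECs, same-numbered deviations correlated at 0.31, 0.09 and 0.10 and those of different numbers at -0.21 to 0.12. For control and ECKO, same-numbered deviations correlated at -0.18, -0.12 and -0.16 and those of different numbers at -0.15 to 0.24. For Lats2 the same-numbered value was 0.07. With 2 libraries a group the deviations mirror each other, so this value cannot show whether the libraries pair. With the replicate block, 25 genes fell in bmECs, 0 were called for ECKO and 68 rose in Lats2 cKO. Depth limits the lowest genes most, and with 2 libraries a group the Lats2 calls rest on a spread shared across genes.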

Other observations

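Within a table, genes with a longer sum of annotated exons had lower FPKM. The Spearman rho across ribosomal protein genes was -0.33 in the mpEC and bmEC table (83 genes), -0.35 in the control and ECKO table (81) and -0.42 in the Lats2 table (82), where the summed exons of a gene had a median of 1770, 1781 and 1776 bases against 751 bases for the transcript with its longest coding sequence. Rps15a, with 6270 bases of exons and a transcript of 640 bases, was among the 5 lowest genes in each table. The order of the levels was shared between tables, with a rho of 0.92 between the mpEC and bmEC table and the Lats2 table, 0.76 between the former and the control and ECKO table, and 0.81 between the latter 2. The log2 fold change in Lats2 cKO had a rho of -0.31 with exon length over the 82 genes and of -0.17 over 12274 tested genes. Rpl24 read 3.24 to 3.96 FPKM in the mpEC and bmEC table and 3.21 to 4.89 in the Lats2 table, and by the mean over a table only 1 gene was lower in either, although within Lats2 Cont 4 genes were lower (Rps15a, Rpl21, Rps3a2 and Rpl27a) and within Lats2 cKO none, while its mean was 129 FPKM in the control and ECKO table. These values are descriptions, and the points share libraries and annotation.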
